A study of Rattus norvegicus with 12 samples.

Results

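Sulphate, dicarboxylate and phosphate transporters of the kidney were followed here in 12 male Zucker rats. The 9 genes were the sulphate carriers Slc13a1 and Slc26a1, the dicarboxylate carriers Slc13a2 and Slc13a3, and the phosphate carriers Slc34a1, Slc34a2, Slc34a3, Slc20a1 and Slc20a2. All 12 probe sets that the array annotation gives to these symbols alone were taken, of 31042 probe sets on the array without controls. Slc13a1, Slc34a1 and Slc20a2 had 2 probe sets each and the other 6 genes had 1. All 12 passed the filter on dim probe sets (a mean log2 signal at or above the 40th percentile) and were among the 18625 tested.

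The 4 groups, of 3 rats each, were obese rats on chow with rosiglitazone, obese rats on chow alone (control diet), lean rats on chow with rosiglitazone and lean rats on chow alone. The dose was 3 mg/kg body weight and feeding lasted 12 weeks. Rosiglitazone is an agonist of the nuclear receptor PPARgamma, and the obesity of this strain comes from an inherited defect of the leptin receptor, so it is present in every tissue. The labels give no age and call every animal a model for diabetes. All values below are MAS5 signals, on a linear scale that starts at 0, from RNA of kidney tissue.

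The proximal tubule takes filtered sulphate, phosphate and di- and tricarboxylates back into the blood, driven mostly by the sodium gradient. Apical carriers of the Slc13 and Slc34 families bring the anions into the cell, and basolateral carriers such as Slc26a1 let sulphate out or, as Slc13a3 does, load the cell from the blood side with dicarboxylates. Phosphate uptake is set chiefly by parathyroid hormone and FGF23, which remove Slc34 proteins from the brush border, so messenger RNA is only one layer of control.

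Proximal tubule markers were well represented. All 17 proximal tubule markers found on the array, of 18 listed, passed the filter. Their summed signal was lower in obese rats: it ranged from 108804 to 110677 in obese rosiglitazone, 108493 to 122531 in obese control, 129941 to 156002 in lean rosiglitazone and 124753 to 156169 in lean control rats. Not all moved the same way: over both diets 10 of the 17 were called lower in obese rats and 2 higher. Of all probe sets, 6.62% were called lower and 7.69% higher. The 6 fat cell markers also moved with the groups, with sums of 4380 to 5547, 1363 to 1901, 8896 to 19051 and 3313 to 5855 in the same order. Over both diets all 6 were called lower in obese rats, as were all 4 markers of the proximal straight segment. Of these 4, Slc5a1 and Ggt1 are also among the 17 proximal tubule markers. Markers of other cells were called higher in obese rats: both of red blood cells, 2 of 4 of principal cells, 2 of 4 of the thick limb (with 1 lower), 1 of 3 of podocytes and the 1 tested of the distal convoluted tubule. The red blood cell sums were 7419 to 12733 in obese rosiglitazone, 5564 to 8087 in obese control, 2349 to 5669.7 in lean rosiglitazone and 4944 to 9735 in lean control rats. In RNA of bulk tissue, fewer cells of a type and less RNA per cell cannot be told apart. The brightest signals were lower on obese arrays, where the signal that 1 probe set in 1000 exceeded lay between 13537 and 16551, against 14781 to 18592 on lean arrays. A spike-in control added at hybridization was brighter on 5 arrays (obese control 1, lean rosiglitazone 1 and 2, and lean control 1 and 2) than on the other 7, which gives a higher and a lower spike-in class. The proximal tubule sums also moved with this class. The highest obese sum, 122531, was that of obese control 1. The lowest sums of the lean groups, 129941 and 124753, were those of lean rosiglitazone 3 and lean control 3, both of the lower class. The brightest signals separated the classes without overlap, at 16551 to 18592 in the higher class and 13537 to 15343 in the lower. Within each class the obese arrays lay below the lean arrays. The part of these shifts in the results was not tested beyond the values given with them. Lean rosiglitazone 3 stood apart on the second principal component. Leaving it out did not alter the number of member calls in any of the 7 comparisons.

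Transporter signals were called different between obese and lean rats, and none was called for the drug. The drug comparisons called 0.0698% of all probe sets in obese rats, 0.00537% in lean rats and 0.0591% over both body types. Over both diets, 4 of the 12 probe sets passed the test, at an adjusted p under 0.05, where 14.3% of all probe sets did. Slc13a3, Slc13a2 and 1 probe set of Slc34a1 were lower in obese rats (6.62% of all probe sets were called lower), and 1 probe set of Slc13a1 was higher (7.69% were called higher). On control diet 2 of 12 passed, 1 higher (2.15% of all probe sets were called higher) and 1 lower (2.58% were called lower), of 4.74% called in all. On rosiglitazone 2 of 12 passed, both lower (2.6% were called lower), of 5% called in all.

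The basolateral dicarboxylate carrier Slc13a3, also called NaDC3, had the clearest difference. It takes up 2-oxoglutarate and succinate from the blood, and the organic anion exchangers of the same membrane use that 2-oxoglutarate as counter-ion. Its signals were 3255, 3938 and 4519 in obese rats on rosiglitazone, 3012, 3312 and 2696 in obese rats on control diet, 7295, 5835 and 6128 in lean rats on rosiglitazone and 6865, 5766 and 6284 in lean rats on control diet. Every obese array lay below every lean array. On control diet the means were 3006 ± 308 in obese and 6305 ± 549.7 in lean rats (SD, n = 3 each), which is 2.09-fold lower in obese rats (a log2 change of −1.07 with an SE of 0.13, adjusted p = 3e-04). On rosiglitazone the means were 3904 ± 633 in obese and 6419 ± 773 in lean rats, 1.65-fold lower in obese rats (a log2 change of −0.72 with an SE of 0.13, adjusted p = 0.00525). All 20 other settings kept each of these calls, and among arrays of the lower spike-in class the log2 difference over both diets was −0.86 (5 obese against 2 lean arrays).

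Slc13a3 had a higher mean signal on the drug than on control diet in obese rats, without passing the test. The log2 change was 0.37 (SE 0.13, adjusted p = 0.711) in obese rats and 0.02 (SE 0.13, adjusted p = 0.999) in lean rats. The drug's effect differed between body types by 0.34 (95% interval −0.04 to 0.73, adjusted p = 0.992), and the interval includes 0.

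The promoters of 3 genes with a call between body types are shown as the 250 bases before the RefSeq gene start in GRCr8. Slc13a3 and 1 of the 2 probe sets of Slc34a1 were lower in obese rats, and 1 of the 2 probe sets of Slc13a1 was higher on control diet. All 3 genes lie on the minus strand and the sequences are written 5′ to 3′ along the gene. Capitals mark the E-box letters CACGTG or the core GTTAAT of sites for HNF1, a transcription factor of the proximal tubule, on either strand.
Slc13a3 promoter, chr3:174623894-174624143: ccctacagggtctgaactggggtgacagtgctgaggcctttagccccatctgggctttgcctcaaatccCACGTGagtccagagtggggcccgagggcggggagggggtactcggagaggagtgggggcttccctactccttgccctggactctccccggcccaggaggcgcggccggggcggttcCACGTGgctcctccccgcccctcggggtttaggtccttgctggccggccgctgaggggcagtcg
Slc34a1 promoter, chr17:9238984-9239233: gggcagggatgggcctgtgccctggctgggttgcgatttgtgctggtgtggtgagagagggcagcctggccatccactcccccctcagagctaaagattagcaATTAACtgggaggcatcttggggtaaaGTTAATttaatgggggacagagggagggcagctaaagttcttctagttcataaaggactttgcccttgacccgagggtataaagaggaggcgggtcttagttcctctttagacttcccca
Slc13a1 promoter, chr4:53612705-53612954: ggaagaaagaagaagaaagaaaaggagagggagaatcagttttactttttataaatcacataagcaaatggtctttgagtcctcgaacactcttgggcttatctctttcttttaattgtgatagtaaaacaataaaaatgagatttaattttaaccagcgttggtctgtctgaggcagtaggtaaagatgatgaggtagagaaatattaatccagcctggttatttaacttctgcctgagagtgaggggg

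CACGTG occurred at 2 places in the Slc13a3 window, starting 181 and 64 bases before the gene start. It was held at least once by 1 of the 7 members with a promoter entry and by 5.59% of the 33469 promoter windows of the same length. GTTAAT occurred at 2 places in the Slc34a1 window, 147 bases (on the other strand) and 120 bases before the start. It was held at least once by 1 of the 7 members and by 6.45% of all windows. The window of Slc13a2, also called over both diets, held neither and is not shown. The receptor core AGGTCA was found in 1 of the 7 members with a promoter entry, Slc34a3, and in 14.1% of all windows. The PPAR element AGGTCANAGGTCA was found in 0 of the 7 and in 0.0508% of all windows. The PPAR element contains the receptor core, and both were searched on both strands. These matches describe letters in a short window and say nothing about binding.

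Slc13a2, or NaDC1, is the apical carrier that takes citrate and succinate back from the filtrate and so helps set urinary citrate. Its signals were 1654, 2231 and 1637 in obese rosiglitazone and 1495, 1587 and 1520.5 in obese control rats, against 2518, 3056 and 2085 in lean rosiglitazone and 2421, 3106 and 1530.3 in lean control rats. The groups overlapped on both diets: lean control 3 was as low as the obese control rats, and obese rosiglitazone 2 lay above lean rosiglitazone 3. Over both diets Slc13a2 was 1.42-fold lower in obese rats (a log2 change of −0.51 with an SE of 0.15, adjusted p = 0.0383), and neither diet alone passed (adjusted p = 0.174 on control diet and 0.245 on rosiglitazone). Without lean control 3 the change on control diet was called, at −0.83 (adjusted p = 0.0142), against −0.55 with it. The call over both diets was lost in 12 of 20 other settings, with an adjusted p of up to 0.19. With spike-in class added as a covariate the log2 change over both diets was −0.31. Within the lower class the difference on control diet was 0.02 (2 obese against 1 lean array), and within the higher class it was −0.87 (1 against 2).

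The apical sulphate carrier Slc13a1, or NaS1, is the step that recovers filtered sulphate. Its probe set 1370468_at had signals of 300.4, 630.4 and 478 in obese rosiglitazone, 1054, 1092 and 967 in obese control, 496, 348 and 532 in lean rosiglitazone and 384, 501 and 499 in lean control rats. The obese control rats stood alone, above all 9 other arrays. Their mean was 1038 ± 63.9, against 462 ± 66.9 in lean control rats, 2.22-fold higher (log2 change 1.15, SE 0.22, adjusted p = 0.0103). On rosiglitazone the means were 469.7 ± 165 in obese and 459 ± 97.1 in lean rats (log2 change −0.0048, 95% interval −0.48 to 0.47, adjusted p = 0.995). The difference on control diet was 1.23 within the higher and 1.02 within the lower spike-in class, and without lean control 1 its adjusted p was 0.0535. The call over both diets (log2 change 0.57, SE 0.16, adjusted p = 0.026) was lost in 7 of 20 other settings, with an adjusted p of up to 0.111.

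The other probe set of Slc13a1, 1370467_at, had signals of 259, 496 and 449 in obese rosiglitazone, 1134, 937 and 716 in obese control, 682, 476 and 780.3 in lean rosiglitazone and 613, 794 and 529 in lean control rats. Here too the obese control group had the highest mean, but obese control 3 lay below lean control 2. The change on control diet was 0.51 (SE 0.25) and did not pass (adjusted p = 0.298). On rosiglitazone it was −0.69 (SE 0.25, adjusted p = 0.142), so that the 2 probe sets did not give 1 answer on that diet.

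**Figure D1:**
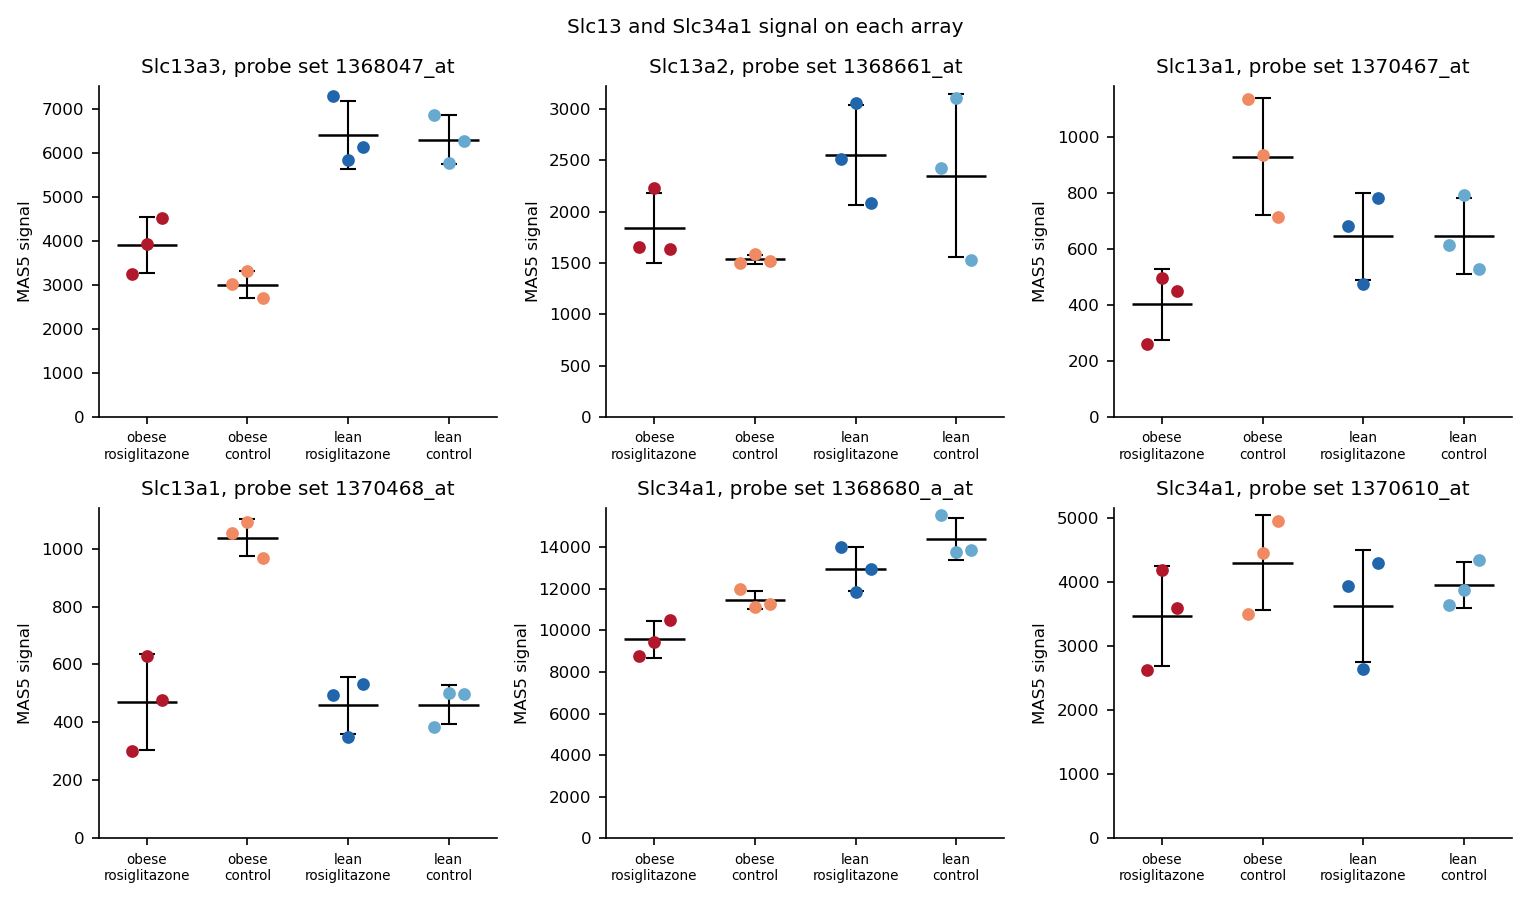
MAS5 signal (vertical axis, from 0) on each of the 12 arrays for Slc13a3, Slc13a2 and both probe sets of Slc13a1 and of Slc34a1, with points for rats and bars for the mean ± SD of 3 rats. The obese groups lie below the lean groups for Slc13a3, and the obese control rats lie above all other groups for Slc13a1 probe set 1370468_at (967 to 1092).

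In obese rats the Slc13a1 signal was lower on rosiglitazone than on control diet. The 3 treated arrays lay below the 3 untreated ones for both probe sets. The log2 change was −1.18 (SE 0.22, adjusted p = 0.0997) for 1370468_at and −1.20 (SE 0.25, adjusted p = 0.149) for 1370467_at, a 2.26-fold and a 2.30-fold lower estimate, and neither passed. In lean rats the changes were −0.02 (adjusted p = 0.999) and −0.01 (adjusted p = 0.999). The difference in the drug effect between body types was −1.15 (SE 0.32, unadjusted p = 0.00258, adjusted p = 0.987) and −1.20 (SE 0.36, unadjusted p = 0.00485, adjusted p = 0.992), and 0 of the 12 members and 0% of all probe sets were called for this difference (2 of the 12 and 4.31% had an unadjusted p under 0.05). The comparison of obese with lean rats on control diet and that of the drug with control diet in obese rats share the obese control arrays, so they are not separate observations. Whether this change passed depended on single arrays. Without obese rosiglitazone 2, the 1370468_at change in obese rats passed (−1.41, adjusted p = 0.0329), and without obese rosiglitazone 1 it was −0.90 (adjusted p = 0.27).

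Slc26a1, or sat-1, exchanges sulphate across the basolateral membrane and completes sulphate reabsorption. Its signals were 1242, 1675 and 1493 in obese rosiglitazone, 1939, 2206 and 2309.7 in obese control, 1588, 1357 and 1553 in lean rosiglitazone and 1649, 2076 and 1555 in lean control rats. The obese control group was again the highest in mean, and its 3 arrays lay above the 3 obese arrays on the drug. The drug effect in obese rats was −0.55 (SE 0.13, unadjusted p = 0.000896, adjusted p = 0.298) and did not pass. In lean rats it was −0.22 (SE 0.13, adjusted p = 0.981), and over both body types −0.39 (SE 0.09, adjusted p = 0.343). The obese minus lean change on control diet was 0.29 (SE 0.13, adjusted p = 0.241).

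Slc34a1, or NaPi-IIa, is the main phosphate carrier of the brush border. Its brighter probe set, 1368680_a_at, had signals of 8751, 9432 and 10508 in obese rosiglitazone, 11979, 11138 and 11278 in obese control, 13986, 11862 and 12950 in lean rosiglitazone and 15564.5, 13779.8 and 13884 in lean control rats. The obese arrays lay below the lean arrays on each diet. Over both diets the signal was 1.30-fold lower in obese rats (a log2 change of −0.38 with an SE of 0.06, adjusted p = 0.00132). The call held with spike-in class added as a covariate and without each array in turn, but not after quantile normalization, where the change was −0.19 (adjusted p = 0.0849).

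By diet, the Slc34a1 change was −0.44 (SE 0.09, adjusted p = 0.0131) on rosiglitazone, with means of 9563 ± 886 in obese and 12933 ± 1062 in lean rats. It was −0.33 (SE 0.09, adjusted p = 0.052) on control diet, with 11465 ± 451 in obese and 14409 ± 1002 in lean rats. The call on rosiglitazone was lost without obese rosiglitazone 1 (adjusted p = 0.0624), obese rosiglitazone 2 (0.0519) or lean rosiglitazone 1 (0.0594), and under both median centring (0.0675) and quantile normalization (−0.23, adjusted p = 0.192). This probe set lay close to the brightest signals of the arrays, which were themselves lower on obese arrays and on arrays of the lower spike-in class.

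The other Slc34a1 probe set, 1370610_at, had 2634, 4183 and 3595 in obese rosiglitazone, 3496, 4457 and 4952 in obese control, 3937, 2643 and 4304 in lean rosiglitazone and 3648, 3877 and 4347 in lean control rats. All groups overlapped. Its change over both diets was 0.03 (95% interval −0.27 to 0.32, adjusted p = 0.93), an interval that does not contain the −0.38 of the brighter probe set. The lower Slc34a1 level in obese rats therefore rests on 1 of its 2 probe sets. In obese rats the brighter probe set was also lower on the drug, without overlap (log2 change −0.26, SE 0.09, adjusted p = 0.697, not called).

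**Figure D2:**
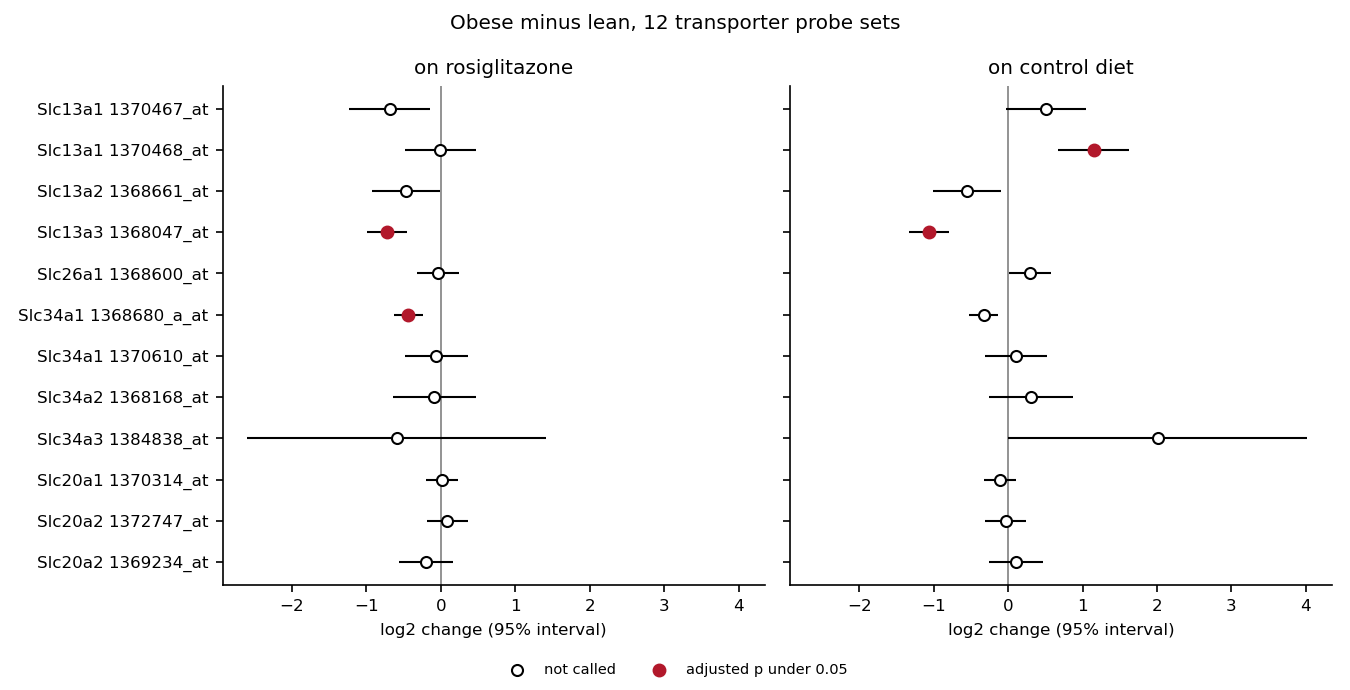
Log2 change of obese over lean rats (horizontal axis) with its 95% interval for the 12 probe sets, on rosiglitazone at left and on control diet at right, with called changes filled. Slc13a3 was called on both diets (−0.72 and −1.07), Slc34a1 1368680_a_at on rosiglitazone (−0.44) and Slc13a1 1370468_at on control diet (1.15).

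Slc34a3, or NaPi-IIc, is the other brush border phosphate carrier of the kidney, best known for its role in hereditary rickets with hypercalciuria in people. It had the widest spread among the members. Its signals were 42.4, 654 and 68.5 in obese rosiglitazone, 306, 659 and 880.1 in obese control, 73.2, 281 and 410.1 in lean rosiglitazone and 64.9, 59.6 and 469.9 in lean control rats. Each group but obese control held rats near background next to rats several times higher. The level taken as background was 68.9, the 95th percentile of 27 probe sets for bacterial genes. The change on control diet was 2.01 (95% interval 0.00 to 4.02, adjusted p = 0.264) and that of the drug in obese rats −1.96 (95% interval −3.97 to 0.05, adjusted p = 0.999). The change on control diet was 0.68 within the lower spike-in class (2 obese against 1 lean array) and 2.04 within the higher (1 against 2). It was 1.42 with spike-in class as a covariate. Since 4 signals lay under the background level, these values depend on the offset and are not exact.

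The glucose carrier gene Slc5a2, or SGLT2, which is expressed in the early proximal tubule, was set beside Slc34a3 after its values were seen. Its signals were 165, 1134 and 829 in obese rosiglitazone, 759, 1163 and 1704 in obese control, 57.6, 53.8 and 667 in lean rosiglitazone and 36.5, 54.0 and 502 in lean control rats. Lean control 1 and 2 lay under background for both genes, and lean control 3 lay above it for both.

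**Figure D3:**
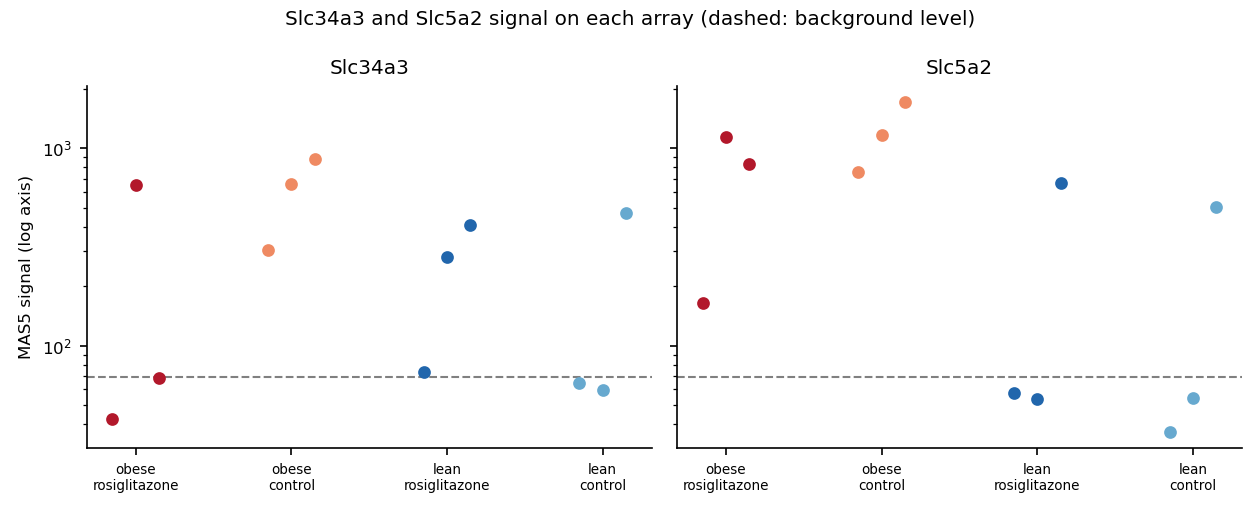
MAS5 signal (vertical log axis) of Slc34a3 at left and Slc5a2 at right on each of the 12 arrays, with a dashed line at the background level of 68.9. Every group but obese control has rats below the line for at least 1 of the genes, while all 3 obese control rats lie above it for both.

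Slc34a2, or NaPi-IIb, is the phosphate carrier of gut and lung. Its signals were 1066, 797 and 1114 in obese rosiglitazone, 2469, 996 and 1416 in obese control, 1321, 853 and 1008 in lean rosiglitazone and 1240.4, 1239.99 and 1189 in lean control rats. Obese control 1 alone lay above 1500 and carried the spread of its group (mean 1627 ± 759). The changes did not pass, at 0.31 (SE 0.26, adjusted p = 0.58) for obese over lean on control diet and −0.62 (SE 0.26, adjusted p = 0.953) for the drug in obese rats. Without obese control 1 they were −0.04 and −0.27.

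Slc20a1 and Slc20a2 encode PiT-1 and PiT-2, sodium phosphate carriers found in most tissues. Slc20a1 had 2068, 2029 and 1888 in obese rosiglitazone, 1571, 1679 and 1999.95 in obese control, 1991, 1879 and 2042 in lean rosiglitazone and 1796, 2050.1 and 1815 in lean control rats. All its changes lay between −0.11 and 0.19, and its 95% interval for obese over lean rats over both diets was −0.20 to 0.10. Slc20a2 probe set 1372747_at had 455, 419.9 and 428 in obese rosiglitazone, 483, 489.6 and 502 in obese control, 415, 348 and 469 in lean rosiglitazone and 532, 503 and 478 in lean control rats. It was lower on the drug without overlap in both body types, which held for 0.408% of all probe sets in this direction, but the change of −0.23 (SE 0.09) did not pass (adjusted p = 0.87). The other probe set, 1369234_at, gave −0.03 (SE 0.12, adjusted p = 0.999).

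Seen together, the drug comparison in obese rats had 5 of 12 probe sets lower without overlap (both of Slc13a1, and 1 each of Slc26a1, Slc34a1 and Slc20a2), where 6.34% of all probe sets were. Only Slc13a2 was higher without overlap, where 5.56% of all were. The median log2 change was −0.29 over the 12 and 0.00 over all probe sets tested. None of the 12 passed, and 0.0698% of all probe sets did (limma). An unadjusted p under 0.05 was found for 6 of the 12 and for 4.92% of all. Among these 6 were both probe sets of Slc13a1, and Slc13a3 was higher on the drug where the others were lower. Obese rosiglitazone 1 was the lowest of the 12 arrays for 6 of the 12 probe sets, and its 3′ to 5′ signal ratio of actin, a measure of RNA integrity, was the highest at 2.40, against 1.57 to 2.24 on the others. The same ratio of Gapdh was 1.28 on this array, below the 1.32 of lean control 3. Lean control 2, with the actin ratio of 2.24, was the lowest array for 1 of the 12 probe sets. A part of RNA integrity was not tested. In lean rats the median was −0.01, 1 probe set was lower without overlap (4.44% of all were), none passed and 1 had an unadjusted p under 0.05. Of all probe sets, 0.00537% passed in lean rats and 4.79% had an unadjusted p under 0.05. Over both body types 0 of the 12 passed, against 0.0591% of all probe sets, and 7 of the 12 had an unadjusted p under 0.05, against 5.08% of all. These 7 again held both probe sets of Slc13a1, with Slc13a3 higher and the others lower.

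**Figure D4:**
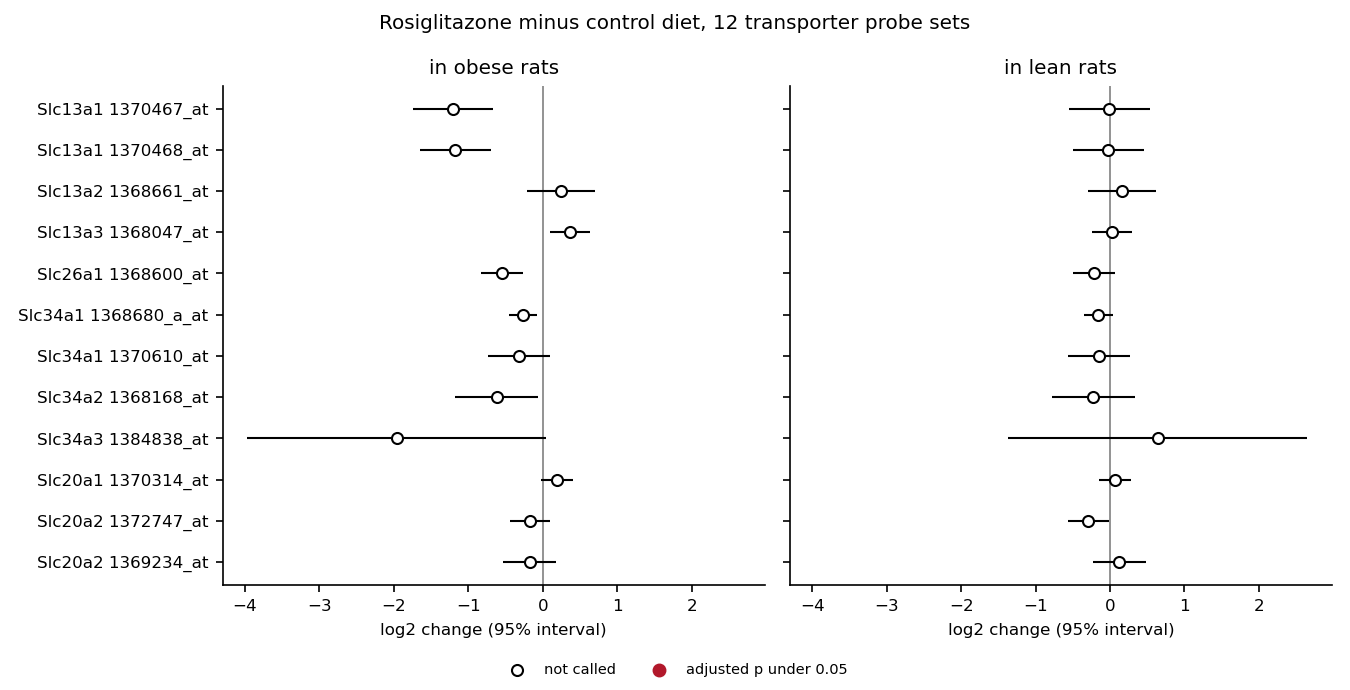
Log2 change of rosiglitazone over control diet (horizontal axis) with its 95% interval for the 12 probe sets, in obese rats at left and in lean rats at right. None of the changes passed the test. In obese rats both Slc13a1 estimates lie near −1.2 (−1.20 and −1.18) with intervals that stay below 0.

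Genes that act on or beside these carriers were counted from 4 lists, with 1 probe set a gene. The list of phosphate hormones and receptors also held the kinase gene Sgk1. Of its 10 tested genes 1 rose, which was Sgk1, and 2 fell in obese rats over both diets (median log2 change 0.00, against 0.03 over all probe sets, of which 7.69% were called higher and 6.62% lower). Sgk1, a kinase that raises the activity of several renal transporters, had means of 6642 ± 424 in obese rosiglitazone, 5089 ± 429 in obese control, 3207 ± 619 in lean rosiglitazone and 3870.2 ± 652 in lean control rats (over both diets 0.73, SE 0.10, adjusted p = 0.000324). By diet Sgk1 rose on rosiglitazone (1.06, adjusted p = 0.000833) and did not pass on control diet (0.40, adjusted p = 0.125). The difference between diets was not called. The FGF receptor genes Fgfr1 (−0.24, adjusted p = 0.0201) and Fgfr3 (−0.34, adjusted p = 0.0248) fell. Fgfr1 did not pass without obese rosiglitazone 2 (adjusted p = 0.0534), Fgfr3 did not in 6 of 20 settings, and another probe set of each did not pass (−0.16 and −0.05).

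Of 8 brush border scaffold and partner genes, none rose and 3 fell in obese rats over both diets (median −0.10), where 7.69% of all probe sets were called higher and 6.62% lower. Nherf4 encodes a PDZ protein that binds Slc34a1, and had means of 828 ± 92.2 in obese rosiglitazone and 985 ± 45.4 in obese control rats, against 1602 ± 108 in lean rosiglitazone and 1459 ± 213 in lean control rats. It fell on rosiglitazone (−0.94, adjusted p = 0.000494) and on control diet (−0.55, adjusted p = 0.0173), where 4 single arrays decided the call (adjusted p of up to 0.0829 without obese control 2 or 3 or lean control 1 or 2). Nherf1, the scaffold that holds Slc34a1 in the brush border, had a log2 change of −0.36 over both diets (SE 0.08, adjusted p = 0.00966), and its other probe set had −0.32 (adjusted p = 0.163). Pdzk1, a further scaffold, had −0.36 (adjusted p = 0.0334) and did not pass in 14 of 20 other settings. Its lean arrays of the lower spike-in class, at 4733 and 4920.1, lay beside the obese means of 4683 and 4894.

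Of 11 other anion carriers tested, none rose and 6 fell in obese rats over both diets (median −0.25), where 7.69% of all probe sets were called higher and 6.62% lower. Slc22a7, an organic anion transporter gene and one of the proximal straight segment markers, had a log2 change of −1.29 (SE 0.10, adjusted p = 2.77e-06). Slc22a6 encodes OAT1, an exchanger that uses the dicarboxylate gradient, and is also one of the proximal tubule markers. It had means of 1398 ± 221 in obese rosiglitazone, 2013 ± 260.3 in obese control, 2336 ± 204 in lean rosiglitazone and 2273 ± 160 in lean control rats (−0.46, SE 0.09, adjusted p = 0.00353). By diet it fell on rosiglitazone (−0.74, adjusted p = 0.00436) and did not pass on control diet (−0.18, adjusted p = 0.484), and the difference between diets was not called. The phosphate and urate carrier family genes Slc17a1 (−0.54, adjusted p = 0.00132) and Slc17a3 (−0.40, adjusted p = 0.00572) fell. The mitochondrial dicarboxylate carriers Slc25a10 (−0.25, adjusted p = 0.0202) and Slc25a11 (−0.27, adjusted p = 0.0218) fell too, but did not pass in 4 and 6 of 20 other settings, and another probe set of Slc25a10 had 0.18 (adjusted p = 0.5). Of the proximal tubule markers, 2 of 17 rose and 10 fell in the same comparison (median −0.36), set against the same 7.69% and 6.62% of all probe sets.

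Of 11 genes of sulphate activation and transfer, 2 rose and 2 fell in obese rats over both diets (median 0.02), where 7.69% of all probe sets were called higher and 6.62% lower. Sult1a1, a phenol sulphotransferase, had means of 2933 ± 462 in obese rosiglitazone, 2759 ± 220.2 in obese control, 1561 ± 499 in lean rosiglitazone and 1446.5 ± 109 in lean control rats, and rose on both diets (0.94, adjusted p = 0.00834 on rosiglitazone, and 0.92, adjusted p = 0.00915 on control diet). Papss2, which makes the activated sulphate donor PAPS, rose by 0.40 over both diets (SE 0.08, adjusted p = 0.0044), with 0.30 (adjusted p = 0.0489) from its other probe set. The sulphotransferase Sult1c2 (−0.46, adjusted p = 0.0158) and the Golgi PAPS carrier Slc35b3 (−0.45, adjusted p = 0.00684) fell, and Sult1c2 did not pass once spike-in class was a covariate (adjusted p = 0.072). In these 4 lists none of the genes passed for the drug, in either body type or over both. Of all probe sets, 0.0698% passed in obese rats, 0.00537% in lean rats and 0.0591% over both body types.

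**Figure D5:**
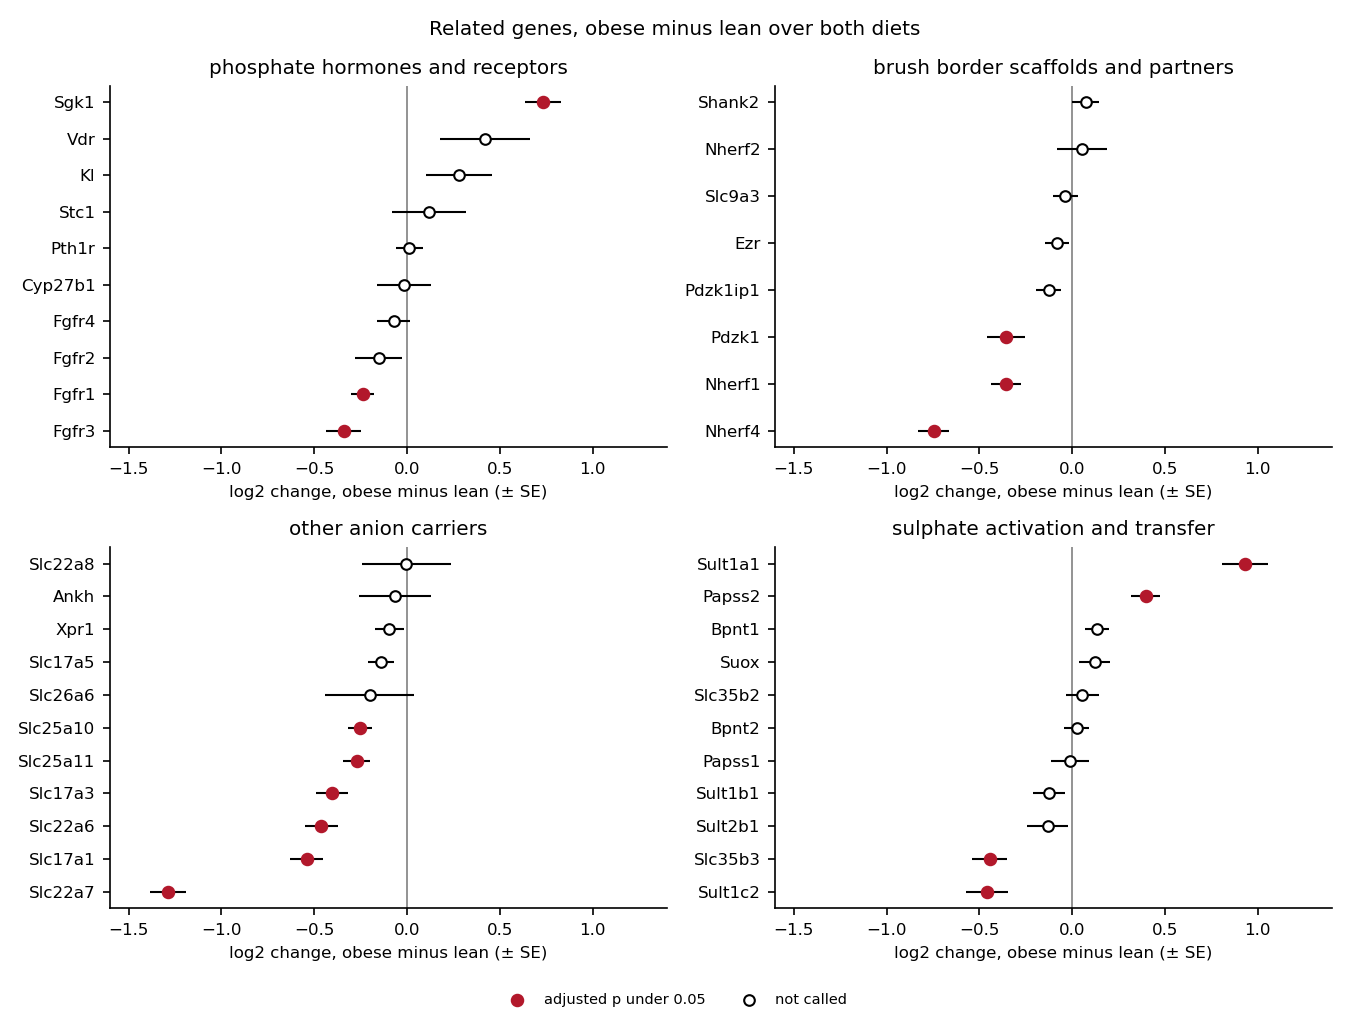
Log2 change of obese over lean rats over both diets (horizontal axis, ± SE) for each tested gene of the 4 lists, with called changes filled. Slc22a7 (−1.29) and Nherf4 (−0.75) lie lowest and Sult1a1 (0.93) and Sgk1 (0.73) highest.

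For each gene with a call, the probe set of highest mean was set against all others, and the 3 with the highest correlation of log2 signal over the 12 arrays were named. These are descriptions of 12 arrays that share body type and spike-in class. For Slc13a3 these were Gstt1 (Pearson r 0.97, Spearman rho 0.86), Pcdh9 (0.96 and 0.94) and Rarres1 (0.96 and 0.85). For Slc34a1 they were Cyp4f1 (0.95 and 0.98), Smoc2 (0.95 and 0.92) and Igsf11 (0.95 and 0.92). For Slc13a1 this was probe set 1370467_at, which was not called, and they were Bid (0.91 and 0.90), Cryga (0.90 and 0.85) and Calml4 (0.89 and 0.91), and for Slc13a2 they were Irak1 (0.95 and 0.89), Lpgat1 (0.93 and 0.80) and G0s2 (0.93 and 0.85).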

How the data were processed

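Kidney RNA of 12 rats was measured on 12 arrays, extracted with Trizol and labelled with an Enzo kit, per the labels' protocols. The authors deposited linear signal intensity for each probe set, for which the submitters' processing notes name MAS5 and no version. All 12 arrays had a mean of 500.1 after 2% trimming at each end and were used as deposited. No 2 arrays held the same values. Precision is limited by the 3 arrays in each group.

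Of 31099 probe sets, 57 controls were left out. An offset of 16 was added before log2, and probe sets whose mean lay below the 40th percentile (7.32) were dropped. All 12 arrays entered 1 limma 3.58.1 model (R 4.3.3) with 4 group means, which left 8 residual degrees of freedom, and eBayes (trend, robust). The p-values were adjusted by Benjamini-Hochberg over all 18625 probe sets for each of 7 comparisons, and called means an adjusted p under 0.05. The model was tested on simulated data. Alternatives were offsets of 1 and 64, no filter, a filter at the 60th percentile, median centring, quantile normalization, spike-in class as covariate, a replicate block and leaving out each array. The p-values set a difference between group means against the spread between rats within groups, moderated over all probe sets tested.

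All members were named. List genes were named where called in any comparison, at most 6 a list, and like genes as the 3 of highest Pearson r. The members, lists and tests were chosen with earlier results of these data known. Symbols follow the GEO platform annotation. Promoters are from RefSeq (GRCr8), and 7 of the 9 members had an entry.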

Additional observations from a re-analysis of the deposited data

How the results depend on the processing

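Slc13a3 passed in all 20 other settings in each obese over lean comparison. The number of member probe sets called in obese over lean rats on control diet was 2, and 4 with the replicate block, which added Slc13a2 (adjusted p = 0.0462) and Slc34a1 1368680_a_at (0.0477). It was 1 to 3 when single arrays were left out (1 without lean control 1). On rosiglitazone it was 2, and 1 with median centring and with quantile normalization (Slc34a1 was lost), and 1 to 2 without single arrays. Over both diets it was 4, and 2 with spike-in class as covariate (Slc13a1 and Slc13a2 were lost), and 2 to 4 without single arrays, with 2 without obese rosiglitazone 3, obese control 1, obese control 2, lean rosiglitazone 2 or lean control 1. For the drug in obese rats it was 0, and 0 to 1 without single arrays. It was 0 in every setting for the drug in lean rats, over both body types and for the difference between body types. In all, 126 of 140 such counts lay within 1.5 times the reported one. These include the drug comparisons and the difference between body types, where the reported count was 0 and could hardly move. The share therefore says little about how stable the obese over lean counts were.

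Over all probe sets, the 882 calls on control diet ranged from 327 to 1010 without single arrays and were 516 with median centring, which moved the share of higher calls to 34.7%, against 45.5%. The 932 calls on rosiglitazone ranged from 469 to 1039 and were 493 with median centring. The drug's calls in obese rats were 13, and 0 to 34 over the settings, and the share of higher calls was 42.9% after quantile normalization, against 69.2%. The titles number the rats 1 to 3 in each group without saying that a number is shared. Deviations of same-numbered arrays from their group means correlated at −0.18 to 0.18, over 0.1 in 4 of 18 pairs, and 3 of 12 arrays correlated best with their own number, so the numbers were not taken as pairs.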

Other observations

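Slc34a3 and Slc5a2 were compared array by array after their values were seen. Both genes were under the background level of 68.9 in lean control 1 and 2 and well above it in lean control 3, lean rosiglitazone 3, obese rosiglitazone 2 and all obese control rats. They lay on opposite sides of it on 4 of the 12 arrays. Slc34a3 was under it and Slc5a2 above it in obese rosiglitazone 1 (42.4 and 165) and obese rosiglitazone 3 (68.5 and 829). Slc34a3 was above it and Slc5a2 under it in lean rosiglitazone 1 (73.2 and 57.6) and lean rosiglitazone 2 (281 and 53.8). Over the 12 arrays the Pearson r was 0.72 and the Spearman rho 0.74, as a description of arrays that share group and spike-in class. The probe set most like that of Slc34a3 was one of Usp28 (0.89 and 0.87).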
